A study of Arabidopsis thaliana with 33 samples.

Results

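SWEET10 (AT5G50790) and SWEET11 (AT3G48740), each with a probe set of its own, are 2 of the 17 SWEET sugar transporter genes of Arabidopsis. They are described here out of 22746 probe sets on the Affymetrix ATH1 array. The pair was chosen by measured values from these same arrays, SWEET11 by its lower level in roots at 50 kPa/NormOx and SWEET10 by its higher level in shoots at 50 kPa, each against 97 kPa. The differences of SWEET11 in roots and of SWEET10 in shoots that involve the groups they were chosen by are therefore given as descriptions, without a p-value, and so are their other differences from 97 kPa. The responses of SWEET10 in roots and of SWEET11 in shoots, and a few differences between other treated groups, were tested. These tests are not independent of the choice, since the same arrays chose the other gene of the pair and the levels of both genes were correlated in shoots (r = 0.80).

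Seedlings of the ecotype Wassilewskija (WS), aged 10 d and grown on vertical plates with sucrose in the medium under constant light, were kept for 24 h in low-pressure chambers. The treated groups were held at a total pressure of 50 kPa or 25 kPa, where oxygen falls with the pressure, at the same pressures with the oxygen partial pressure brought back up to 21 kPa (called 50 kPa/NormOx and 25 kPa/NormOx), or at 97 kPa with oxygen cut to 5.1 kPa (97 kPa/HypOx). The control was kept at 97 kPa, the ambient pressure of the site. Seedlings were dissected into roots and shoots, with 15 root arrays and 18 shoot arrays, 1 to 4 in a group. Each array holds RNA of pooled seedlings from 1 plate, so a value averages over all cell types of the organ, and fewer cells of a type cannot be told apart from less RNA per cell. Root 25 kPa/NormOx has 1 array, root 50 kPa/NormOx and shoot 97 kPa/HypOx have 2 each, shoot 50 kPa/NormOx has 4, and the other groups have 3. The study's methods describe 3 chambers for each treatment, so some of the 4 arrays may share a chamber, and their independence was not known. Values are log2 expression values from Robust Multi-chip Average (RMA) normalization, made separately for each organ.

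SWEET proteins are membrane carriers that let sugars move down their concentration gradient, in either direction, without using protons. SWEET11, with its close relative SWEET12, releases sucrose from leaf phloem parenchyma into the cell wall space, where proton-coupled sucrose symporters load it into the phloem for export to the roots. SWEET10 and SWEET13 belong to the same sucrose-transporting clade. SWEET10 is known from the shoot apex as a gene switched on when long days induce flowering. SWEET10 and SWEET13 are also next to each other in the gene annotation.

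The organ markers PYK10 and RCA followed the labels, and the root markers EXPA7 and TIP2-3 overlapped between the organs. PYK10, a beta-glucosidase abundant in roots, ran from 12.05 to 12.62 in root arrays and from 7.93 to 9.87 in shoot arrays. RCA, the activase of the carbon-fixing enzyme Rubisco in green tissue, was 12.32 to 12.70 in shoots, against 6.01 to 7.25 in roots. EXPA7 was 6.70 to 8.36 in roots and 4.24 to 7.11 in shoots. Its value of 7.11, within the root range, was in replicate 1 of shoot 50 kPa/NormOx. TIP2-3 was 4.23 to 6.42 in roots and 3.94 to 4.44 in shoots. An array in each organ stood apart from the rest. Replicate 1 of root 97 kPa correlated with the rest of the roots at 0.884 on average, where the others averaged 0.966 to 0.980. For replicate 1 of shoot 50 kPa/NormOx the average was 0.898, where the others had 0.974 to 0.983. The differences of SWEET10 and SWEET11 that include these arrays are given with and without them.

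SWEET11 was a bright transcript in shoots and SWEET10 a moderate one, and both were dimmer in roots. SWEET11 ranged from 9.20 to 10.97 in the 18 shoot arrays with a median of 9.93, and from 6.69 to 9.15 in the 15 root arrays with a median of 7.21. It lay above 95.5% to 98.9% of the probe sets on the shoot arrays and above 76.0% to 95.4% of those on the root arrays. SWEET10 ranged from 5.71 to 8.24 in shoots with a median of 6.73, and from 4.46 to 4.99 in roots with a median of 4.67. In roots it lay above 36.2% to 47.6% of the probe sets, below the middle of every root array, and in shoots above 60.8% to 91.3%. No root array of either gene reached its lowest shoot array, and this also held when both organs were normalized together (SWEET11 at most 9.16 in roots and at least 9.18 in shoots, SWEET10 at most 5.01 in roots and at least 5.72 in shoots). The gap between organs was not tested, since the deposited values of the organs were scaled apart.

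In shoots, SWEET10 had its highest mean at 50 kPa, and its lowest means were at 25 kPa and 97 kPa. Its values were 7.11, 7.16 and 8.24 at 50 kPa, 6.93, 6.70, 5.92 and 6.98 at 50 kPa/NormOx, 6.42, 5.71 and 6.00 at 25 kPa, 7.29, 6.47 and 6.51 at 25 kPa/NormOx, 6.99 and 6.75 at 97 kPa/HypOx, and 6.98, 5.71 and 6.09 at 97 kPa. All 3 arrays at 50 kPa lay above all arrays of every other group except the highest at 25 kPa/NormOx. SWEET10 was chosen by its level at 50 kPa, and the share of all probe sets with such an order was not counted. The order of the group means was 50 kPa (7.50 ± 0.64, SD, n = 3), 97 kPa/HypOx (6.87 ± 0.17, SD, n = 2), 25 kPa/NormOx (6.76 ± 0.47, SD, n = 3), 50 kPa/NormOx (6.63 ± 0.49, SD, n = 4), 97 kPa (6.26 ± 0.65, SD, n = 3) and 25 kPa (6.04 ± 0.36, SD, n = 3). From 97 kPa/HypOx downwards, neighbours in this order had overlapping arrays. Without replicate 1 of 97 kPa, the array at 6.98, the mean of 97 kPa was 5.90, below that of 25 kPa.

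**Figure D1:**
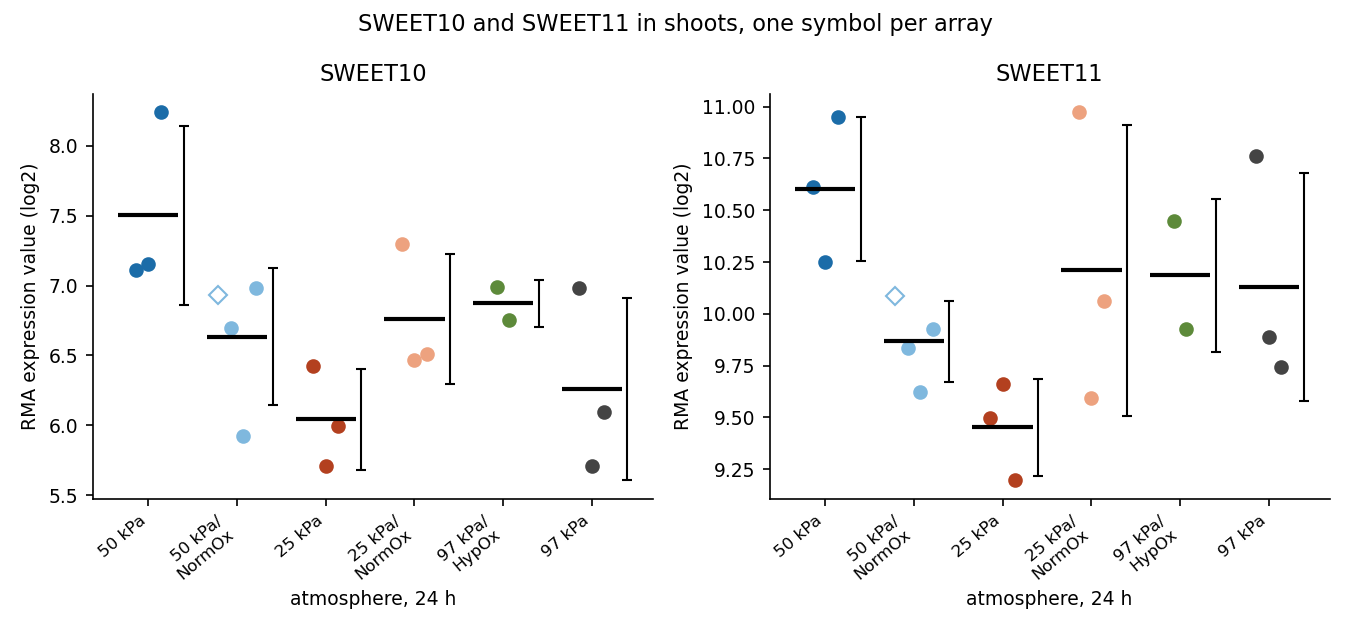
RMA expression values (log2) of SWEET10 (left) and SWEET11 (right) in shoots by atmosphere, a symbol per array, with the group mean as a horizontal line and ± 1 SD as the bar beside it. The open diamond is replicate 1 of 50 kPa/NormOx, the array that correlates least with the others. Both genes have their highest mean at 50 kPa (7.50 and 10.60) and their lowest at 25 kPa (6.04 and 9.45).

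SWEET10 in shoots was 2.37-fold higher at 50 kPa than at 97 kPa, a log2 difference of 1.24 (SE 0.38) that is the value it was chosen by. It was past the study's threshold for differential expression, an unadjusted p under 0.01 with a log2 difference of at least 1 in size, as were 0.106% of all probe sets in that comparison. The other atmospheres differed from 97 kPa by 0.37 (SE 0.36) at 50 kPa/NormOx, -0.22 (SE 0.38) at 25 kPa, 0.50 (SE 0.38) at 25 kPa/NormOx and 0.61 (SE 0.43) at 97 kPa/HypOx. SWEET10 was not past that threshold in these 4, where 0.0486%, 0.283%, 0.053% and 0.185% of all probe sets were. The difference at 50 kPa was no longer past the threshold in 3 of the 6 fits that left out an array of these groups, at 0.87 without replicate 3 of 50 kPa (the array at 8.24), 0.97 without replicate 2 of 97 kPa and 1.16 without replicate 3 of 97 kPa. Without replicate 1 of 97 kPa it was 1.60, and the difference at 25 kPa turned to 0.14. Without the outlying array of 50 kPa/NormOx the difference of that group was 0.27 for SWEET10 and -0.34 for SWEET11. A log2 difference of 0.87 (SE 0.36), and of 0.97 without the outlying array, separated SWEET10 at 50 kPa from 50 kPa/NormOx, where the total pressure was the same and oxygen was restored.

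In shoots, SWEET11 had the same groups at the top and the bottom of its order. Its values were 10.61, 10.25 and 10.95 at 50 kPa, 10.09, 9.83, 9.62 and 9.93 at 50 kPa/NormOx, 9.50, 9.66 and 9.20 at 25 kPa, 10.97, 9.59 and 10.06 at 25 kPa/NormOx, 10.45 and 9.93 at 97 kPa/HypOx, and 10.76, 9.89 and 9.74 at 97 kPa. The groups at 50 kPa and 97 kPa overlapped, and so did every pair of neighbours in the order of means. That order was 50 kPa (10.60 ± 0.35, SD, n = 3), 25 kPa/NormOx (10.21 ± 0.70, SD, n = 3), 97 kPa/HypOx (10.19 ± 0.37, SD, n = 2), 97 kPa (10.13 ± 0.55, SD, n = 3), 50 kPa/NormOx (9.87 ± 0.20, SD, n = 4) and 25 kPa (9.45 ± 0.23, SD, n = 3).

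None of the 5 responses of SWEET11 in shoots passed the limma test after Benjamini-Hochberg adjustment across the 22646 probe sets tested. The log2 differences from 97 kPa were 0.47 (SE 0.32, adjusted p = 0.846) at 50 kPa, -0.26 (SE 0.30, adjusted p = 0.999) at 50 kPa/NormOx, -0.68 (SE 0.32, adjusted p = 0.689) at 25 kPa, 0.08 (SE 0.32, adjusted p = 1.00) at 25 kPa/NormOx and 0.06 (SE 0.36, adjusted p = 1) at 97 kPa/HypOx. In the shoot comparisons with 97 kPa, 0.0795% of all probe sets had an adjusted p under 0.05 at 25 kPa and 0.0221% at 97 kPa/HypOx, against 0% at 50 kPa, at 50 kPa/NormOx and at 25 kPa/NormOx. Few shoot transcripts of any kind passed the adjusted test.

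Of the 9 comparisons made in shoots, the widest gap of both genes was between the 2 low-pressure atmospheres themselves. SWEET10 at 25 kPa was 2.75-fold lower than at 50 kPa (log2 difference -1.46, SE 0.38, given without a p-value because the 50 kPa arrays entered its choice). SWEET11 at 25 kPa was 2.22-fold lower than at 50 kPa (log2 difference -1.15, SE 0.32), with an unadjusted p of 0.00304 in the limma fit and an adjusted p = 0.877. The 3 arrays at 25 kPa lay below the 3 at 50 kPa for each gene, and the share of all probe sets that separate in this way was not counted. Both were past the study's threshold, as were 10 of 22646 probe sets (0.0442%), 9 of them lower and 1 higher at 25 kPa, while 0% had an adjusted p under 0.05 (1070 had an unadjusted p under 0.05). The comparison was picked out after values were known. Neither gene was past the threshold without replicate 3 of 50 kPa, where the differences were -1.09 for SWEET10 and -0.98 for SWEET11. The SWEET10 call was also lost without replicate 2 of 25 kPa (-1.30) and the SWEET11 call without replicate 3 of 25 kPa (-1.02). Over all 6 arrays left out in turn, SWEET10 ran from -1.66 to -1.09 and SWEET11 from -1.33 to -0.98.

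Adding oxygen at 25 kPa, or taking it away at 97 kPa, gave a further pair of comparisons with 25 kPa in shoots. SWEET10 at 25 kPa was -0.72 (SE 0.38, adjusted p = 0.886) against 25 kPa/NormOx and -0.83 (SE 0.43, adjusted p = 1) against 97 kPa/HypOx on the log2 scale. SWEET11 was -0.76 (SE 0.32, adjusted p = 0.721) and -0.73 (SE 0.36, adjusted p = 1) in the same comparisons. SWEET11 at 50 kPa was 0.74 (SE 0.30, adjusted p = 0.604) against 50 kPa/NormOx, and 0.81 without the outlying array. None of these passed the limma test. In each the 2 genes had differences of like size and sign, which is no separate support, since their levels were correlated across these same arrays.

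Across the 18 shoot arrays the values of SWEET10 and SWEET11 moved together, with a Pearson r of 0.80 and a Spearman rho of 0.84. With each group's mean taken out, r was 0.74, and without the outlying array it was 0.80. These are descriptions of arrays that share an organ and a normalization. In roots, where SWEET10 was dim, r was 0.43 over 15 arrays. Among the probe sets of a single named gene, SWEET11 had the fourth highest correlation with SWEET10 in shoots. The others in the first 5 were AT1G33590 (r = 0.83), AT4G22490 (r = 0.82), AT2G39690 (r = 0.81) and AT2G07741 (r = 0.80).

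**Figure D2:**
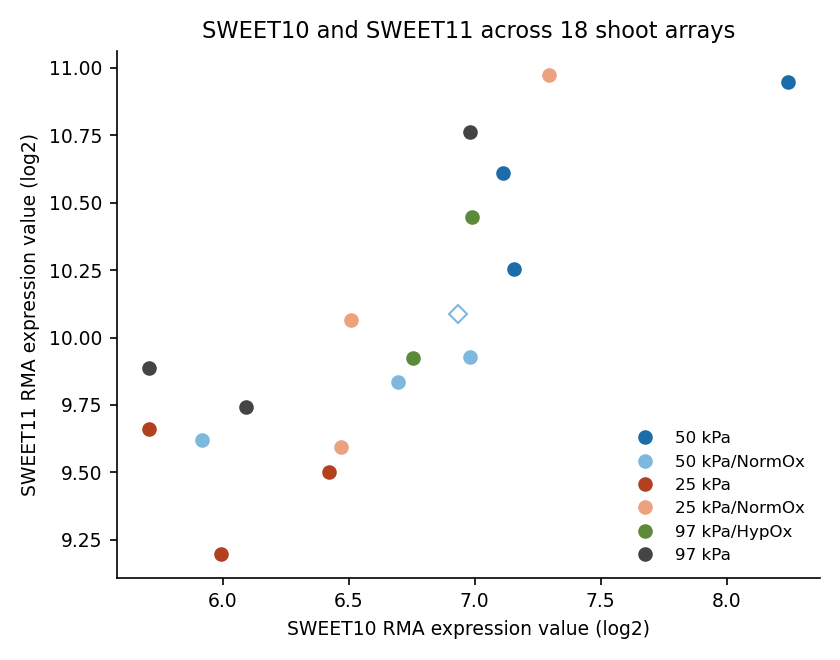
SWEET11 against SWEET10 in the 18 shoot arrays, both as RMA expression values (log2), coloured by atmosphere, with the outlying array as an open diamond. Arrays with high SWEET10 also had high SWEET11 (r = 0.80), and the 3 arrays at 50 kPa lie to the right of the 3 arrays at 25 kPa and above them.

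In roots, SWEET11 was lower in each of the 5 treated atmospheres than at 97 kPa. Its values were 7.46, 7.05 and 7.47 at 50 kPa, 7.0 and 6.69 at 50 kPa/NormOx, 6.75, 7.21 and 7.34 at 25 kPa, 7.11 in the single array at 25 kPa/NormOx, 7.28, 6.80 and 7.08 at 97 kPa/HypOx, and 9.15, 7.51 and 7.67 at 97 kPa. Every one of the 12 treated root arrays lay below all 3 arrays at 97 kPa. These include the arrays SWEET11 was chosen by, and how many of all probe sets separate from the control in this way was not counted. The 97 kPa array at 9.15 is the outlying replicate 1, and the next highest of all root arrays was at 7.67. The nearest treated array was at 7.47 and the lowest 97 kPa array at 7.51.

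**Figure D3:**
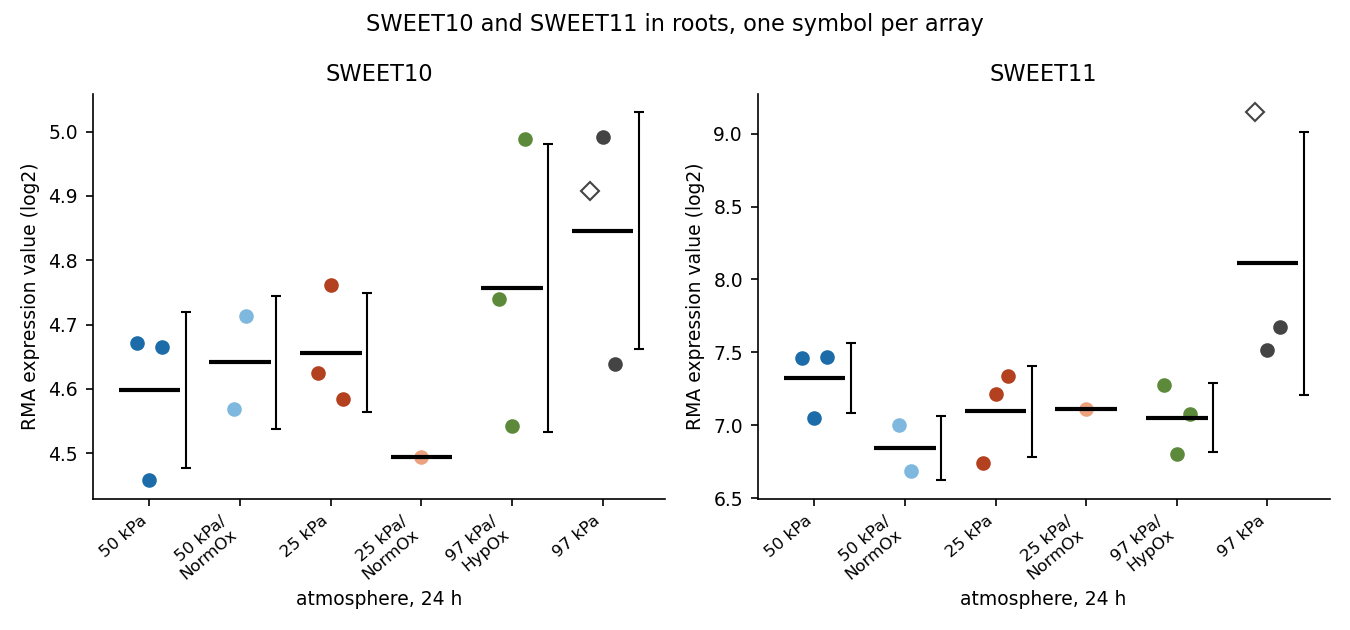
RMA expression values (log2) of SWEET10 (left) and SWEET11 (right) in roots by atmosphere, a symbol per array, with the group mean as a horizontal line and ± 1 SD as the bar beside it. The open diamond is replicate 1 of 97 kPa, which holds the highest SWEET11 value in roots (9.15). The SWEET10 values span 4.46 to 4.99.

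The group means of SWEET11 in roots were 7.32 ± 0.24 at 50 kPa (SD, n = 3), 6.84 ± 0.22 at 50 kPa/NormOx (SD, n = 2), 7.10 ± 0.31 at 25 kPa (SD, n = 3), 7.11 at 25 kPa/NormOx (n = 1), 7.05 ± 0.24 at 97 kPa/HypOx (SD, n = 3) and 8.11 ± 0.90 at 97 kPa (SD, n = 3). The treated groups overlapped their neighbours in the order of means. SWEET11 at 50 kPa/NormOx was 2.41-fold lower than at 97 kPa, a log2 difference of -1.27 (SE 0.40), which is the value it was chosen by. The other differences from 97 kPa were -0.79 (SE 0.35) at 50 kPa, -1.01 (SE 0.35) at 25 kPa, -1.0 (SE 0.50) at 25 kPa/NormOx and -1.06 (SE 0.35) at 97 kPa/HypOx. SWEET11 was past the study's threshold at 50 kPa/NormOx, where 0.0618% of all probe sets were. It was not past it in the other 4 root comparisons, where 0.397% were at 50 kPa, 0.905% at 25 kPa, 0.0397% at 25 kPa/NormOx and 0.627% at 97 kPa/HypOx.

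The size of this fall rested on the outlying control array. Without replicate 1 of root 97 kPa, the log2 differences of SWEET11 were -0.27 at 50 kPa, -0.75 at 50 kPa/NormOx, -0.50 at 25 kPa, -0.48 at 25 kPa/NormOx and -0.54 at 97 kPa/HypOx. All kept their sign and none reached 1 in size. The call at 50 kPa/NormOx was also lost without either array of that group, at -1.42 and -1.11. The same array had the highest root value of EXPA7 (8.36, against 6.70 to 7.58 in the other root arrays), a root hair expansin. Of the shoot genes, PSBO1, a subunit of the oxygen-evolving complex of photosystem II, was at its lowest root value there (6.41), and RCA at 6.32 was within the range of the other root arrays. The part of these values in the SWEET11 result was not tested.

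Among the treated root groups the SWEET11 differences were smaller. At 25 kPa it was -0.01 (SE 0.50, adjusted p = 1.00) against 25 kPa/NormOx, 0.04 (SE 0.35, adjusted p = 0.999) against 97 kPa/HypOx and -0.23 (SE 0.35, adjusted p = 0.999) against 50 kPa on the log2 scale in the limma fit. At 50 kPa it was 0.48 (SE 0.40) above 50 kPa/NormOx. A p-value that misses the threshold does not show that these groups were alike.

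SWEET10 in roots stayed between 4.46 and 4.99 in all 15 arrays and no response was detected. Its means were 4.60 ± 0.12 at 50 kPa (SD, n = 3), 4.64 ± 0.10 at 50 kPa/NormOx (SD, n = 2), 4.66 ± 0.09 at 25 kPa (SD, n = 3), 4.49 at 25 kPa/NormOx (n = 1), 4.76 ± 0.22 at 97 kPa/HypOx (SD, n = 3) and 4.85 ± 0.18 at 97 kPa (SD, n = 3). All 5 differences from 97 kPa were below 0 and neighbours in the order of means overlapped. By limma with Benjamini-Hochberg adjustment they were -0.25 (SE 0.14, adjusted p = 0.487) at 50 kPa, -0.21 (SE 0.15, adjusted p = 0.599) at 50 kPa/NormOx, -0.19 (SE 0.14, adjusted p = 0.444) at 25 kPa, -0.35 (SE 0.19, adjusted p = 0.774) at 25 kPa/NormOx and -0.09 (SE 0.14, adjusted p = 0.792) at 97 kPa/HypOx. Without the outlying 97 kPa array they were -0.32 to -0.06. In the same comparisons 0.00442%, 0%, 0.349%, 0% and 0.437% of all probe sets had an adjusted p under 0.05. At this brightness RMA compresses differences, so a change in a low transcript could be understated.

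**Figure D4:**
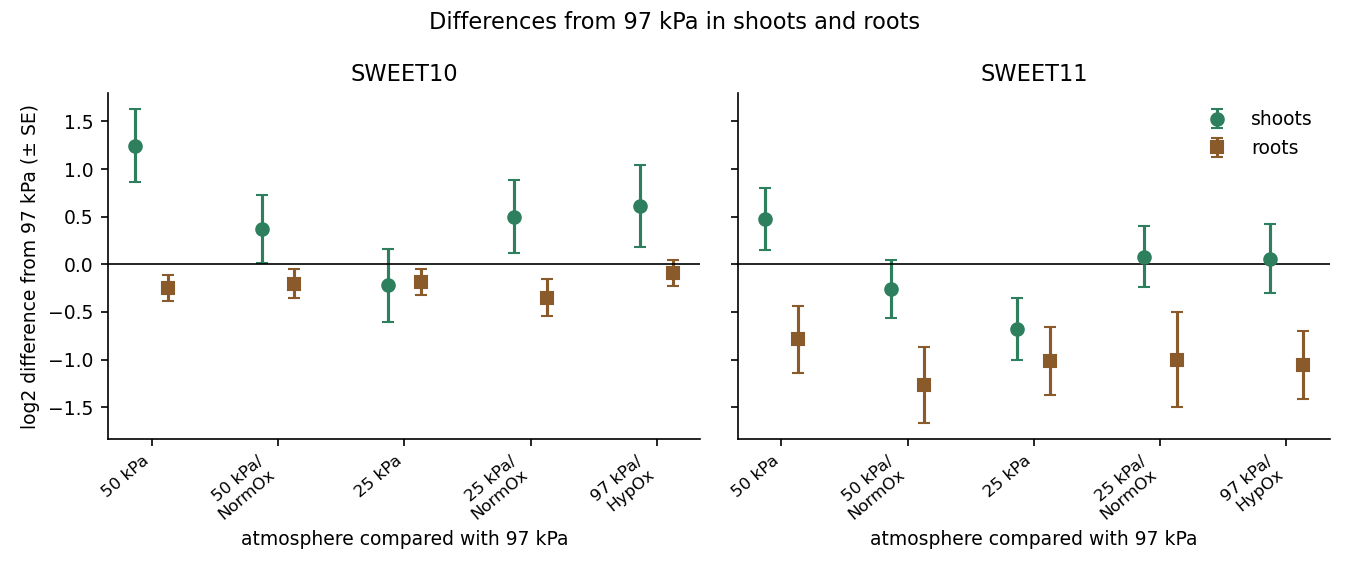
Log2 differences of each treated atmosphere from 97 kPa (± SE) for SWEET10 (left) and SWEET11 (right), in shoots (circles) and roots (squares). SWEET10 stands at 1.24 in shoots at 50 kPa with all root values between -0.35 and -0.09, and SWEET11 is at -0.79 or below in all 5 root comparisons, with shoot values from -0.68 to 0.47.

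The organs were set against each other as the root response minus the shoot response in a fit of all 33 arrays, given without p-values because the arrays that chose the genes enter it. For SWEET10 this was -1.49 (SE 0.44) at 50 kPa, -0.58 (SE 0.45) at 50 kPa/NormOx, 0.03 (SE 0.44) at 25 kPa, -0.85 (SE 0.54) at 25 kPa/NormOx and -0.70 (SE 0.47) at 97 kPa/HypOx. For SWEET11 it was -1.26 (SE 0.50), -1.0 (SE 0.51), -0.34 (SE 0.50), -1.08 (SE 0.61) and -1.11 (SE 0.53) in the same order. For both genes the difference between organs was smallest in size at 25 kPa. Without the outlying array of each organ the values were -1.46, -0.45, 0.06, -0.82 and -0.67 for SWEET10 and -0.74, -0.41, 0.18, -0.56 and -0.60 for SWEET11, so that SWEET11 at 25 kPa changed sign.

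Of the root markers in the shoot samples, PYK10 was higher at 50 kPa, where SWEET10 was highest, and also at 25 kPa, where SWEET10 was not. PYK10 was 8.76, 9.26 and 9.79 in shoots at 50 kPa, against 8.02, 7.93 and 8.73 at 97 kPa, a log2 difference of 1.04 (SE 0.30, adjusted p = 0.689), and at 97 kPa/HypOx it was higher by 1.52 (SE 0.34, adjusted p = 0.318). At 25 kPa PYK10 was 9.41, 8.83 and 8.76, a log2 difference of 0.77 (SE 0.30, adjusted p = 0.494). The summed level of the 3 measured root markers of 7 listed ran from 8.88 to 9.86 in shoots at 50 kPa and from 8.89 to 9.51 at 25 kPa, against 8.16 to 8.87 at 97 kPa. This sum was taken on the unlogged scale and is mostly PYK10, so it adds little to the PYK10 values. EXPA7 was not raised at 50 kPa (4.27, 4.63 and 4.24, against 5.24, 4.36 and 4.74 at 97 kPa), and its mean at 25 kPa was 5.02, against 4.78 at 97 kPa. The mean of TIP2-3 was 4.31 at 50 kPa and 4.15 at 25 kPa, against 4.16 at 97 kPa. SWEET10 itself was at 4.46 to 4.99 in roots, below every shoot array, and its shoot value was lower at 97 kPa/HypOx than at 50 kPa. Whether root material had a part in the shoot values was not tested.

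Of the other 15 SWEET genes, 14 had a probe set of a single named gene, and SWEET12 was not analysed here. Their median log2 difference from 97 kPa lay between -0.02 and 0.07 in the 5 shoot comparisons and between -0.07 and 0.12 in the 5 root comparisons, beside a median of -0.01 to 0.02 over all probe sets. In shoots 0 of 14 were past the study's threshold in any comparison with 97 kPa, where 0.0486% to 0.283% of all probe sets were, and in roots SWEET13 at 50 kPa was, where 0.397% of all were. At such background shares a count of 0 or 1 among 14 genes says nothing particular to the list. In shoots at 50 kPa the highest differences after SWEET10 were those of SWEET16, at 0.61 (SE 0.21, adjusted p = 0.719), and SWEET1, a glucose carrier, at 0.57 (SE 0.32, adjusted p = 0.840). In the shoot comparison of 25 kPa with 50 kPa, 0 of the 14 passed the threshold, beside 0.0442% of all probe sets, and their median difference was 0.01. Some of the probe sets past the threshold there carried no gene name, so these values do not show whether SWEET12 was among them.

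SWEET13, a phloem sucrose carrier and the chromosomal neighbour of SWEET10, was also lower in roots. It was 6.10, 5.66 and 5.28 at 50 kPa, against 7.22, 6.81 and 6.08 at 97 kPa, a log2 difference of -1.02 (SE 0.29, adjusted p = 0.306), and -0.76 without the outlying array. In the other 4 root comparisons it was -0.84 to -0.46. Its correlation with SWEET11 over the root arrays was 0.57, and 0.03 without the outlying array. In shoots it had differences from -0.42 to 0.08 and a correlation with SWEET10 of -0.06 over the 18 arrays.

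The vacuolar carriers and SWEET7 also turned on the same control array in roots. SWEET16, a sugar carrier of the vacuole membrane, was 7.67, 8.05 and 7.88 at 25 kPa, against 6.10, 7.32 and 7.33 at 97 kPa, a log2 difference of 0.95 (SE 0.27, adjusted p = 0.179), and 0.55 without replicate 1. SWEET17, the vacuolar fructose carrier, was 0.75 (SE 0.24, adjusted p = 0.243) at 25 kPa and 0.39 without it. SWEET7 was -0.88 to -0.57 in the 5 root comparisons, and -0.31 to 0.00 without it. In that array SWEET7 (5.96), SWEET11 (9.15) and SWEET13 (7.22) had their highest root values, and SWEET1 (4.24), SWEET16 (6.10) and SWEET17 (5.20) their lowest. The remaining 9 genes had median values of 3.73 to 5.19 in roots and 4.05 to 5.00 in shoots. By their means they lay above 15.7% to 52.2% of the probe sets in roots and 18.3% to 45.9% in shoots.

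**Figure D5:**
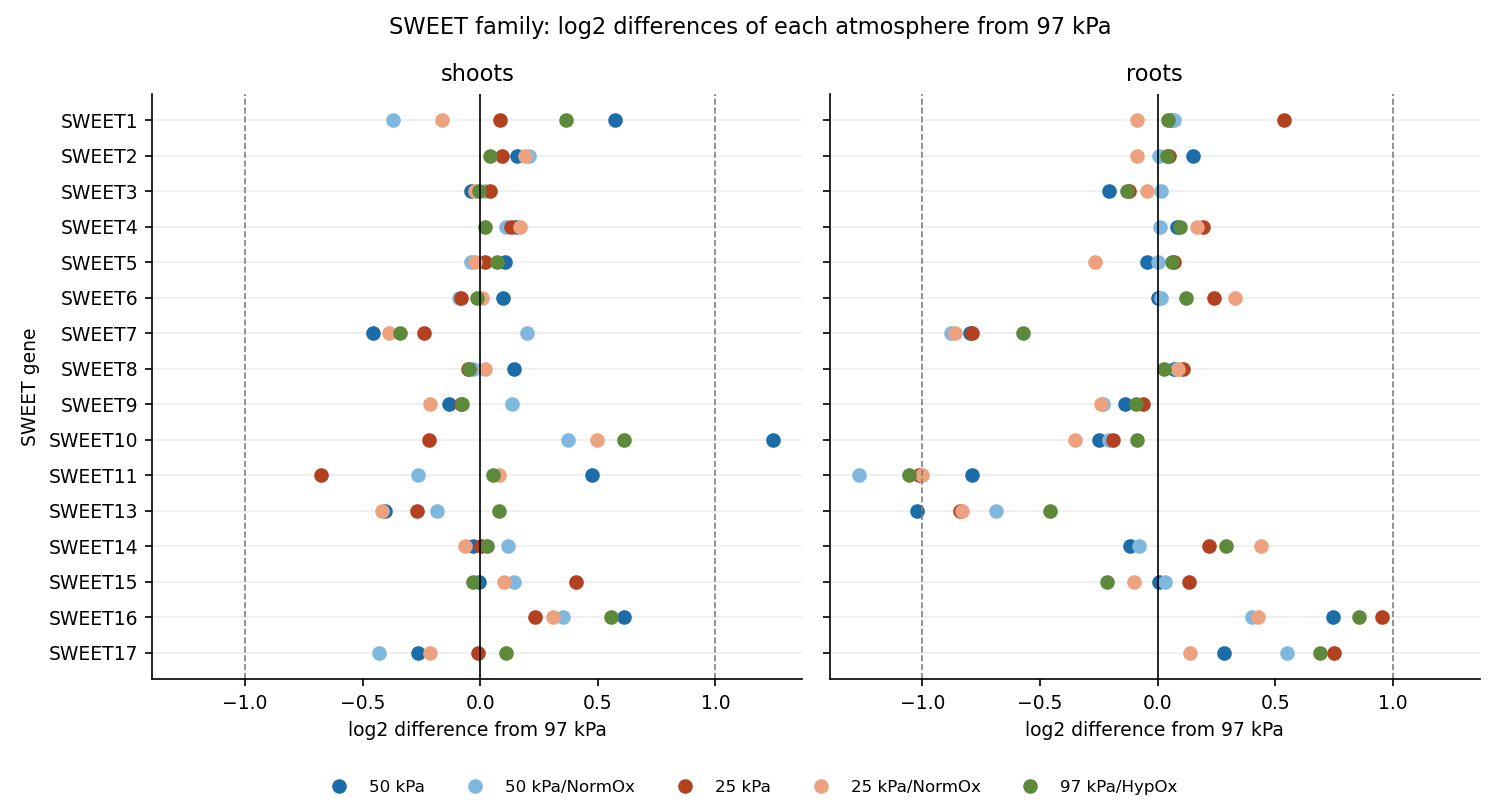
Log2 differences of each treated atmosphere from 97 kPa for the 16 SWEET genes measured, in shoots (left) and roots (right), a point per atmosphere. Dashed lines mark a log2 difference of 1 in either direction, which SWEET10 passes in shoots at 50 kPa (1.24), and SWEET11 (-1.27 at 50 kPa/NormOx) and SWEET13 (-1.02 at 50 kPa) pass in roots.

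The 5 genes most like SWEET11 over the 15 root arrays were AT3G21360 (r = 0.94), AT1G77810 (r = 0.93), AT3G29240 (r = 0.93), AT2G16990 (r = 0.93) and AT2G09910 (r = 0.93). Without the outlying array these values were 0.87, 0.73, 0.67, 0.70 and 0.69. AT3G21360 kept the closest likeness of the 5. Among SWEET genes the closest were SWEET7 (r = 0.80, and 0.18 without the array) and SWEET17 (r = -0.82, and -0.41 without it).

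Few other listed genes of sugar export and uptake could be examined. The platform annotation named 4 measured hexose-proton symporters of 14 listed (STP3, STP5, STP8 and STP10). It also named 2 invertases of 8 (CWINV6 and BFRUCT3) and the sucrose-phosphate synthase SPS4F of 4. None of these was past the study's threshold in any comparison with 97 kPa. There 0.0397% to 0.905% of all probe sets passed, so a count of 0 says little for so few genes. CWINV1, a further listed invertase, is named only through the study's tables. Its shoot means were 6.50 at 50 kPa (SD 0.66), 6.38 at 25 kPa and 6.31 at 97 kPa/HypOx, against 5.45 at 97 kPa (SD 0.39). At 50 kPa/NormOx and 25 kPa/NormOx they were 6.08 and 5.96. In roots its means ran from 8.41 to 8.93. The SUC sucrose symporters were not analysed here. SPS4F makes the precursor of sucrose, and its median was 8.06 in shoots and 3.65 in roots. Its shoot differences from 97 kPa were 0.13 to 0.46.

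A further 3 listed genes were past the threshold but are named only through the study's tables of called genes, so their calls are not independent. STP13, a hexose-proton symporter, was 1.14 (SE 0.33, adjusted p = 0.689) in shoots at 50 kPa. PP2-A1, a phloem lectin, was 1.34 (SE 0.32, adjusted p = 0.143) in shoots at 25 kPa, where SWEET11 was at its lowest, and OPS, a phloem gene with median values of 4.47 in shoots and 4.50 in roots, was -0.19 there. PSBO1 was 1.10 (SE 0.33, adjusted p = 0.212) in roots at 25 kPa and 1.08 (SE 0.33, adjusted p = 0.277) at 97 kPa/HypOx, and 0.81 and 0.80 without the outlying 97 kPa array.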

How the data were processed

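The deposited table holds log2 expression values of 33 ATH1 arrays. Per the labels the submitters' processing notes name RMA and Affymetrix Expression Console, with no version. Within an organ all arrays share the same quantiles, so the authors normalized roots and shoots separately. Array data have no read depth, and the number of arrays limits the precision. No detection calls were used.

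Probe sets of organelle genes (100) were removed, as in the study's methods, and 22646 of 22746 were tested. The platform annotation gave 1 gene for 13513 probe sets, several for 503, and the study's tables named 213 more. Gene identifiers and neighbours come from RefSeq (TAIR10.1).

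R 4.3.3 with limma 3.58.1 fitted the 6 groups of an organ in 1 model (lmFit, eBayes), with p-values adjusted by the Benjamini-Hochberg method across the 22646. The spread of the lone root 25 kPa/NormOx array was taken from the other groups. The study's threshold is an unadjusted p under 0.01 and a log2 difference of at least 1. The fit was tested on simulated data. The labels give replicate numbers, and the chambers are known only from the study's methods. No array is linked to a given chamber or culture, so p-values measure the spread between these samples. Alternatives were leaving out each array, a replicate block, fitting the compared groups alone, array weights, removing dim probe sets (under the 25th percentile), normalizing both organs together, and keeping organelle probe sets.

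The 2 genes, the gene lists and the comparisons were chosen with earlier results of these data known. Named genes are the 2 genes, every other SWEET gene measured, listed transport, phloem and organ marker genes past the study's threshold, and the 5 genes most correlated with each of the 2. Genes outside this rule (RCA, EXPA7, OPS, SPS4F, the invertases, and symporters below the threshold) were named after their values were seen.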

Additional observations from a re-analysis of the deposited data

Results flagged for a closer look

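Dixon's test was applied to the 16 SWEET genes in the group of 4 arrays, shoots at 50 kPa/NormOx, and 1 value stood apart. SWEET17, the vacuolar fructose carrier, was 6.53 in replicate 1 of shoot 50 kPa/NormOx, against 7.39 to 7.54 in the other 3 arrays. This is the outlying shoot array. Chance alone flags about 1 in 20 groups. SWEET10 (6.93) and SWEET11 (10.09) in the same array were not set apart. Groups with fewer than 4 arrays, among them root 97 kPa, were not examined in this way.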

How the results depend on the processing

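Over 32 differences of SWEET10 and SWEET11, 182 of 192 values were scored as unchanged under the alternatives other than leaving out an array. Without 1 array, 163 of 180 were. Tested differences had to keep their direction and side of an adjusted p of 0.05 in limma, and the others to move by less than 1 SD. No tested difference was under 0.05 in the main fit, so these shares do not describe calls by the study's threshold. With 1 array left out, such calls were lost in 3 of 6 fits for SWEET10 in shoots at 50 kPa. For SWEET11 in roots at 50 kPa/NormOx, 3 of 5 were lost. At 25 kPa against 50 kPa in shoots, 2 of 6 were lost for each gene. Array weights, which count the outlying arrays less, brought the SWEET11 differences from 97 kPa in roots to -0.22 at 50 kPa, -0.73 at 50 kPa/NormOx, -0.45 at 25 kPa, -0.46 at 25 kPa/NormOx and -0.47 at 97 kPa/HypOx. They brought SWEET10 in roots at 50 kPa to -0.35 (limma adjusted p = 0.0412, the 1 tested difference that passed under an alternative), and turned the sign of SWEET11 at 25 kPa/NormOx in shoots (-0.0453) and at 25 kPa against 25 kPa/NormOx in roots (0.0125). The cause was not tested.

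Leaving out 1 array gave ranges for SWEET11 in roots of -1.09 to -0.27 at 50 kPa, -1.57 to -0.75 at 50 kPa/NormOx, -1.31 to -0.50 at 25 kPa, -1.30 to -0.48 at 25 kPa/NormOx and -1.36 to -0.54 at 97 kPa/HypOx, the smallest sizes all without replicate 1 of 97 kPa. Differences near 0 changed sign, namely SWEET11 in roots at 25 kPa against 25 kPa/NormOx (-0.13 to 0.16) and against 97 kPa/HypOx (-0.0805 to 0.22), SWEET11 in shoots at 50 kPa/NormOx (-0.46 to 0.0535), 25 kPa/NormOx (-0.30 to 0.40) and 97 kPa/HypOx (-0.20 to 0.37), SWEET10 in roots at 97 kPa/HypOx (-0.21 to 0.0181), and SWEET10 in shoots at 25 kPa (-0.49 to 0.14, above 0 without replicate 1 of 97 kPa).

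Whether arrays with the same replicate number are linked was not settled. Of 66 pairs of same-numbered arrays within an organ, 25 had deviations correlated above 0.1 (range -0.57 to 0.70). Replicate 1 of shoot 97 kPa, 50 kPa/NormOx and 25 kPa/NormOx correlated at 0.64 to 0.70 with each other. For replicate 1 of root 97 kPa, r was 0.70 with root 50 kPa and 0.77 with shoot 50 kPa/NormOx. The main fits treated all arrays as independent, so their p-values could be affected by such a link. A replicate block turned SWEET11 at 25 kPa against 25 kPa/NormOx in roots to 0.23 and at 97 kPa/HypOx in shoots to -0.0109, and left SWEET10 at 50 kPa in shoots at 1.24 and SWEET11 at 50 kPa/NormOx in roots at -1.27. The number of other SWEET genes past the study's threshold was 0 to 3 over the alternatives, the same as reported in 126 of 140. The number of all probe sets past it moved most with the root 97 kPa arrays, from 90 at 50 kPa to 33 without replicate 1 and 1190 without replicate 3, and at 50 kPa/NormOx from 14 to 1195 without replicate 3. In shoots it was 11 to 105 at 50 kPa (24 with all arrays) and, at 25 kPa against 50 kPa, 1 to 16 (10 with all arrays), with 1 without replicate 3 of 50 kPa.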
